A study of Mus musculus with 12 samples.

Results

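The mRNAs of the JAK and STAT proteins of cytokine signalling, and of their feedback inhibitors, were followed in activated CD4 T cells that lack RNMT. RNMT is the enzyme that methylates the guanosine cap of mRNA. The 10 genes described, chosen by name, were 2 kinases (*Jak1*, *Jak3*), 5 transcription factors (*Stat3*, *Stat4*, *Stat5a*, *Stat5b*, *Stat6*) and 3 inhibitors (*Socs1*, *Socs3*, *Cish*), of 49585 genes in the count files. The study sequenced total cytoplasmic RNA and ribosome protected fragments (RPFs, the pieces of mRNA covered by ribosomes) in 12 libraries, 3 of each kind for each genotype. Naive CD4 T cells were isolated from lymph nodes of female mice with an isolation kit, activated for 20 h on plates coated with antibodies to CD3 (5 ug/ml) and CD28 (1 ug/ml), and given 0.1 mg/ml cycloheximide, which halts ribosomes, for 1 min before lysis. Control cells were *Rnmt* fl/fl CD4cre -, and *Rnmt* cKO cells were *Rnmt* fl/fl CD4cre +, so that both genotypes carry floxed *Rnmt* alleles and differ in the Cre transgene. Cre under the control of the *Cd4* promoter acts from the double positive stage of thymic development, so that deletion begins before the cells leave the thymus. The labels number the libraries 1 to 3 in each genotype without saying that each number was a separate mouse, so the p-values measure the spread between these libraries. The age of the mice was not given.

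Cytokines such as IL-2, IL-4, IL-6, IL-7 and IL-12 bind receptors with no enzyme activity of their own, and JAK kinases attached to the receptor chains phosphorylate STAT proteins, which then pair, enter the nucleus and bind DNA. JAK1 and JAK3 serve the receptors that share the common gamma chain, with STAT5A and STAT5B as the main factors activated by IL-2. STAT6 acts in IL-4 signalling, STAT4 in IL-12 signalling and STAT3 in IL-6 and IL-21 signalling. SOCS1, SOCS3 and CIS, the product of *Cish*, are induced by STAT proteins and act back on the receptors and kinases, so their mRNAs are commonly read as a record of recent cytokine signalling.

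The libraries held between 18915961 and 19111659 reads counted on genes in control total RNA, between 15079703 and 22629563 in *Rnmt* cKO total RNA, between 6786164 and 10661356 in control RPF and between 4123271 and 10166729 in *Rnmt* cKO RPF. Levels are given as CPM, which relates the reads of a gene to all reads counted in the library, scaled by the TMM method. *Rnmt* itself stood at 95.5, 94.1 and 94.3 CPM in the control total RNA libraries and at 29.3, 32.4 and 30.4 CPM in the *Rnmt* cKO libraries, a log2 fold change of -1.62 with an SE of 0.06 (edgeR quasi-likelihood test, adjusted p = 5.84e-06). In RPF it stood at 104, 87.9 and 98.9 CPM against 10.5, 10.4 and 9.60 CPM. The genotypes of all 12 libraries thus matched their labels, although the counts cover the whole gene and not the floxed exon alone.

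The cells were checked against markers of the labelled cell type. *Cd3d*, *Cd3e*, *Cd3g*, *Cd4*, *Cd5* and *Cd28* together reached 2762 to 3039 CPM in control total RNA and 2146 to 2493 CPM in *Rnmt* cKO total RNA, and none was at 0 in any library. Markers of B cells (*Ms4a1*, *Cd79a*, *Cd79b*, *Pax5* and *Ebf1*) were unevenly present. Their summed level in total RNA was 7.27, 4.87 and 25.8 CPM in control libraries and 67.5, 88.7 and 15.1 CPM in *Rnmt* cKO libraries, and in RPF it was 9.20, 7.69 and 28.9 CPM against 93.97, 110.1 and 16.2 CPM. *Rnmt* cKO libraries 1 and 2 therefore stood apart, whereas *Rnmt* cKO library 3 lay below control library 3. For this reason, the results below were also computed with *Rnmt* cKO library 3 as the sole *Rnmt* cKO library against the 3 controls. That fit assumes its spread to be that of the controls. For *Cish* in total RNA, the control libraries had an SD of 0.652 CPM and the *Rnmt* cKO libraries an SD of 81.9 CPM. The p-values of that fit can therefore be too small where *Rnmt* cKO libraries spread more.

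All 10 genes passed the filter on low counts in both kinds of library. In total RNA, 4 of them rose in *Rnmt* cKO cells (*Stat5a*, *Socs1*, *Socs3*, *Cish*) and 2 fell (*Stat5b*, *Stat6*), with an adjusted p below 0.05 by the edgeR quasi-likelihood test. This compares with 54.2% of the 11519 genes tested that passed in either direction, 26.3% as rises and 28% as falls, so a call in total RNA was common in these data. A rise of more than 2-fold was not common: 5.91% of genes passed with one, and all 4 of the genes that rose were among them. In RPF, the same 4 genes rose and 2 fell (*Jak1*, *Stat6*), against 29.8% of 11428 genes called, 14.1% as rises, 15.7% as falls and 3.97% as rises of more than 2-fold. The libraries of the genotypes did not overlap for 6 of the 10 genes in total RNA and for 6 in RPF, beside 62.3% and 46.5% of all genes tested. Values are relative to all the RNA in a library, not to the number of cells. The study measured less mRNA per cell in activated *Rnmt* cKO cells than in controls. It cautioned that falls of single genes are therefore understated and rises overstated in the sequencing. In a bulk sample, a lower share of cells that express a gene cannot be told apart from less of its RNA per cell.

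*Jak1* (ENSMUSG00000028530, chr4:101152367-101265282, minus strand, GRCm38), the kinase that pairs with most cytokine receptors of T cells, fell in RPF but did not pass the test in total RNA. Its total RNA level was 267, 267 and 315 CPM in control libraries and 279, 305 and 234 CPM in *Rnmt* cKO libraries, so that the genotypes overlapped. In RPF it was 754, 714 and 749 CPM against 572, 543 and 563 CPM, and the highest *Rnmt* cKO library lay below the lowest control. The RPF log2 fold change was -0.40 (SE 0.06), or 0.757 times the control level (adjusted p = 0.00200, edgeR), whereas that of total RNA was -0.05 (SE 0.11, adjusted p = 0.696, edgeR). *Jak3* (ENSMUSG00000031805, chr8:71676296-71690575, plus strand), which binds the common gamma chain alone, differed little between genotypes. It stood at 65.3, 71.5 and 63.8 CPM in control total RNA and at 69.6, 74.6 and 68.0 CPM in *Rnmt* cKO total RNA. The log2 fold changes of *Jak3* were 0.08 in total RNA, with a 95% interval of -0.08 to 0.24, and 0.17 in RPF, with an interval of -0.03 to 0.36 (adjusted p = 0.340 and 0.175, edgeR).

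Of the STAT genes, *Stat5a* changed most. *Stat5a* (ENSMUSG00000004043, chr11:100859351-100885169, plus strand) was at 103, 98.5 and 104 CPM in control total RNA and at 326, 464 and 292 CPM in *Rnmt* cKO total RNA. In RPF it was at 165, 174 and 164 CPM in control libraries and at 367, 585 and 379 CPM in *Rnmt* cKO libraries. The lowest *Rnmt* cKO library was above the highest control library in both kinds, and *Rnmt* cKO library 2 was the highest of all. The log2 fold change was 1.83 (SE 0.16, 3.54-fold, adjusted p = 6.88e-05, edgeR) in total RNA and 1.41 (SE 0.17, 2.65-fold, adjusted p = 0.000734, edgeR) in RPF.

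*Stat5b*, which encodes a closely related protein, moved the other way in total RNA. *Stat5b* (ENSMUSG00000020919, chr11:100780731-100850724, minus strand) fell from 122, 125 and 132 CPM in control libraries to 96.7, 106 and 87.0 CPM in *Rnmt* cKO libraries, with no overlap and a log2 fold change of -0.38 (SE 0.08, adjusted p = 0.00407, edgeR). In RPF, the control libraries were at 105, 102 and 109 CPM and the *Rnmt* cKO libraries at 91.4, 109 and 94.99 CPM, an overlap with a log2 fold change of -0.10 (SE 0.08, adjusted p = 0.394, edgeR). The balance of the pair shifted accordingly. Counted per kilobase of exon, the level of *Stat5a* in total RNA was 1.18, 1.10 and 1.10 times that of *Stat5b* in control libraries and 4.70, 6.10 and 4.69 times in *Rnmt* cKO libraries. In RPF the ratio was 2.22 ± 0.148 (SD, n = 3) in control libraries and 6.22 ± 1.09 (SD, n = 3) in *Rnmt* cKO libraries. Per kilobase of coding sequence instead, the total RNA ratios were 0.832, 0.780 and 0.777 in control libraries and 3.32, 4.31 and 3.31 in *Rnmt* cKO libraries. In RPF, the ratios by coding length were 1.55, 1.68 and 1.48 in control libraries and 3.965, 5.286 and 3.935 in *Rnmt* cKO libraries. By that length, *Stat5a* lay below *Stat5b* in control total RNA and above it in control RPF. The ratios of the genotypes did not overlap in either kind of library, and the exact two-sided permutation test gave p = 0.1 for each, the smallest that 3 libraries against 3 allow.

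*Stat5b*, *Stat5a* and *Stat3* are neighbours on chromosome 11. A gap of 8626 bases separates *Stat5b* from *Stat5a*, and the ends of *Stat5a* and *Stat3*, which lie on opposite strands, overlap by 72 bases. Of all stretches of 30 bases in the annotated transcripts of *Stat5a*, 11.7% also occur in *Stat5b*, and 15.4% of those of *Stat5b* occur in *Stat5a*. Reads that fall wholly in such stretches align in 2 places and were not counted, so the ratio of the pair rests on the rest of each transcript. The 3 neighbours did not move together: *Stat5a* rose, *Stat5b* fell in total RNA, and *Stat3* did not pass the test.

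*Stat6* (ENSMUSG00000002147, chr10:127642986-127660957, plus strand), the factor of IL-4 signalling, fell in both kinds of library. Its total RNA level was 175, 181 and 195 CPM in control libraries and 124, 128 and 135 CPM in *Rnmt* cKO libraries, a log2 fold change of -0.51 (SE 0.06, adjusted p = 0.000321, edgeR). In RPF it was 229, 243 and 227 CPM against 174, 189 and 184 CPM, a log2 fold change of -0.35 (SE 0.06, adjusted p = 0.00376, edgeR). The genotypes did not overlap in either kind. The RPF value from *Rnmt* cKO library 3 alone was -0.34, with an adjusted p of 0.0708 (edgeR).

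*Stat3* and *Stat4* did not pass the test in either kind of library. *Stat3* (ENSMUSG00000004040, chr11:100885098-100939540, minus strand) was at 175, 183 and 218 CPM in control total RNA and between 210 and 214 CPM in all 3 *Rnmt* cKO libraries, a log2 fold change of 0.14 with a 95% interval of -0.05 to 0.34 (adjusted p = 0.180, edgeR). Control library 3 was the highest of the 6, and without it the log2 fold change was 0.24 with an adjusted p of 0.0116 (edgeR). *Stat4* (ENSMUSG00000062939, chr1:51987148-52107189, plus strand) had intervals close around 0, with 67.4, 65.8 and 67.4 CPM in control total RNA and 66.7, 62.8 and 71.9 CPM in *Rnmt* cKO total RNA. Its log2 fold change was 0.01 (95% interval -0.15 to 0.16) in total RNA and -0.01 (-0.16 to 0.14) in RPF. A share of 23.8% of the 30-base stretches of *Stat4* lies in an overlapping non-coding gene, *Gm28177*, and reads there are ambiguous between both genes.

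The 3 inhibitors all rose in both kinds of library, and *Cish* rose most of the 10 genes. *Cish* (ENSMUSG00000032578, chr9:107296026-107302784, plus strand) encodes CIS, an SH2 protein that binds activated receptors and is a classical target of STAT5. It was at 18.8, 19.2 and 20.1 CPM in control total RNA and at 141, 246 and 84.9 CPM in *Rnmt* cKO total RNA, with 354 to 372 reads per control library. In RPF it was at 50.2, 59.7 and 45.1 CPM in control libraries and at 264, 429 and 204 CPM in *Rnmt* cKO libraries. The control libraries agreed closely, whereas the *Rnmt* cKO libraries spread widely, with library 2 the highest and library 3 the lowest in both kinds. The log2 fold change was 3.02 (SE 0.36, 8.14-fold, adjusted p = 0.000275, edgeR) in total RNA and 2.54 (SE 0.26, 5.83-fold, adjusted p = 0.000368, edgeR) in RPF. In *Rnmt* cKO library 3 alone, the log2 fold change was 2.16 in total RNA and 1.98 in RPF. The B cell marker level of that library in total RNA (15.1 CPM) lay between those of control libraries 1 and 3.

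*Socs3* (ENSMUSG00000053113, chr11:117966079-117970047, minus strand), which blocks JAK activity at gp130 and related receptors, rose with little spread between libraries. It was at 13.8, 14.1 and 14.1 CPM in control total RNA and at 32.0, 38.5 and 34.7 CPM in *Rnmt* cKO total RNA. In RPF it was at 11.4, 17.2 and 14.6 CPM against 30.3, 35.4 and 31.7 CPM. Its log2 fold change was 1.32 (SE 0.09, 2.503-fold, adjusted p = 2.50e-05, edgeR) in total RNA and 1.19 (SE 0.16, 2.28-fold, adjusted p = 0.00122, edgeR) in RPF, and 1.34 and 1.15 with *Rnmt* cKO library 3 alone.

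*Socs1* (ENSMUSG00000038037, chr16:10782240-10785536, minus strand), an inhibitor of the JAK kinases that restrains interferon gamma signalling, also rose, with a wider spread between libraries. Its total RNA level was 18.5, 25.4 and 27.2 CPM in control libraries and 57.8, 66.8 and 46.5 CPM in *Rnmt* cKO libraries. In RPF it was 14.2, 29.7 and 31.5 CPM against 73.3, 71.5 and 46.3 CPM. The genotypes did not overlap, and in *Rnmt* cKO cells library 3 was the lowest in both kinds. The log2 fold change of *Socs1* was 1.27 (SE 0.17, adjusted p = 0.000550, edgeR) in total RNA and 1.37 (SE 0.29, adjusted p = 0.00935, edgeR) in RPF. From *Rnmt* cKO library 3 alone it was 1.00 in total RNA (adjusted p = 0.00512, edgeR) and 0.89 in RPF, where it no longer passed (adjusted p = 0.213, edgeR).

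**Figure D1:**
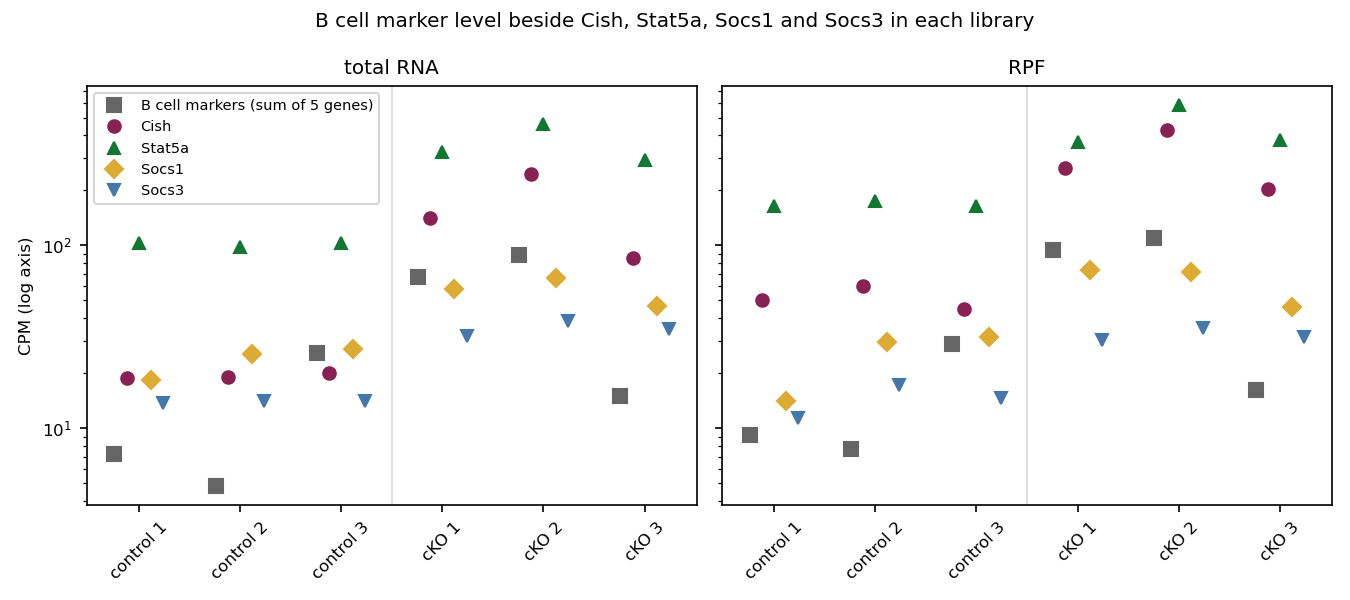
CPM on a log axis of *Cish*, *Stat5a*, *Socs1* and *Socs3* and the summed CPM of 5 B cell markers in each library of total RNA and RPF. In *Rnmt* cKO library 3 the marker sum (15.1 CPM in total RNA) lies below that of control library 3 (25.8 CPM), while the 4 genes lie above all control libraries.

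A STAT motif was present in the start regions of *Cish* and *Socs3*. STAT dimers bind the palindrome TTCNNNGAA, which reads the same on both strands. It was searched in the 300 bases around each RefSeq transcription start (250 before and 50 after, GRCm38.p6), where 8.30% of 32851 mouse windows hold it at least once and 0.457% hold it 2 or more times. The window of *Cish* held 2 matches and that of *Socs3* held 1, and the windows of the other 8 genes held none. These sequences are shown because they are the STAT motifs of the members that rose, with the motif in capitals and 8 flanking bases on each side.
*Cish*, first match, chr9:107296651-107296675, plus strand: gcccagttTTCCTGGAAagttcttg
*Cish*, second match, chr9:107296662-107296686, plus strand: ctggaaagTTCTTGGAAatctgtca
*Socs3*, chr11:117969504-117969528, minus strand: aaccagccTTCTTAGAAgggagggg
The first match of *Cish* begins at its RefSeq start and the second 11 bases further on, and the match of *Socs3* begins 154 bases before its RefSeq start. These RefSeq starts differ from the outer ends of the gene spans given above, and the matches of both genes lie within those spans. A match is a description of these letters, and binding was not measured. *Stat5a* and *Socs1* rose without a match in their windows, as did *Jak2*, *Pim1* and *Bcl2l1*, and no window of *Socs2* was in the table.

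The levels of the genes relative to each other were compared as RPKM, the CPM over all counted reads divided by the kilobases of exon. In control total RNA, *Jak1* was the highest with 56.8 ± 4.76 RPKM (SD, n = 3), followed by *Stat6* with 47.9 ± 2.10, *Stat3* with 30.4 ± 3.25, *Stat5a* with 25.3 ± 0.458, *Stat5b* with 22.4 ± 0.630, *Stat4* with 20.9 ± 0.217 and *Jak3* with 14.8 ± 1.09. The inhibitors were the lowest, with 8.02 ± 1.52 for *Socs1*, 5.42 ± 0.0934 for *Socs3* and 5.23 ± 0.123 for *Cish*, and no neighbours in this order overlapped over the 3 libraries. In *Rnmt* cKO total RNA, *Stat5a* was the highest with 92.0 ± 24.8, ahead of *Jak1* with 56.1 ± 7.62 and *Cish* with 43.7 ± 23.5, and *Socs3* had the lowest mean with 13.9 ± 1.65. There the ranges of *Jak1*, *Cish*, *Stat6* and *Stat3* overlapped from neighbour to neighbour, as did those of *Stat4*, *Socs1*, *Stat5b*, *Jak3* and *Socs3*, so their order within each run is not resolved. In RPF, *Jak1* led in both genotypes, with 149 ± 5.97 in control and 115 ± 4.15 in *Rnmt* cKO libraries, where the range of *Stat5a* (112 ± 31.2) overlapped it. Divided by the length of the coding sequence instead, *Stat3* had the highest mean in control total RNA (its range overlapped that of *Jak1*), and *Cish* had the highest mean in *Rnmt* cKO total RNA (overlapping *Stat5a*) and was the highest in *Rnmt* cKO RPF, since the coding part makes up 2310 of 6228 exon bases in *Stat3* and 771 of 3647 in *Cish*, so the order of genes with unlike transcripts depends on the length used.

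Translation efficiency (TE), the RPF level relative to total RNA, was tested in 1 model of all 12 libraries, as the difference between genotypes in RPF beyond that in total RNA. None of the 10 genes passed by edgeR or by DESeq2, beside 9.81% of 10668 genes tested by edgeR, 3.24% as rises and 6.57% as falls. *Jak1* and *Stat5b* had an unadjusted p below 0.05. In control libraries the ratio of RPF CPM to total RNA CPM, over all counted reads and without TMM, was highest for *Cish* (2.68 ± 0.374, SD, n = 3), *Jak1* (2.64 ± 0.207) and *Jak3* (2.10 ± 0.229) and lowest for *Stat5b* (0.841 ± 0.0332). The TE of *Stat5a* had a log2 fold change of -0.42 (SE 0.25, adjusted p = 0.334, edgeR), with ratios of 1.61, 1.73 and 1.62 in control libraries and 1.18, 1.23 and 1.25 in *Rnmt* cKO libraries. These did not overlap, and with a block that ties the total RNA and RPF libraries of the same genotype and number the value was -0.43 with an adjusted p of 0.0153 (edgeR), in a fit where 7.28% of all genes fell. It also passed without *Rnmt* cKO library 2, at -0.45 with an adjusted p of 0.0153. The ratios of *Stat5b* were 0.868, 0.804 and 0.85 in control libraries and 0.990, 1.00 and 1.05 in *Rnmt* cKO libraries, the opposite direction, with a log2 fold change of 0.29 (SE 0.12, adjusted p = 0.146, edgeR). For *Jak1*, whose RPF level fell, the ratios were 2.85, 2.62 and 2.44 against 2.15, 1.74 and 2.32, a log2 fold change of -0.35 (95% interval -0.64 to -0.06, adjusted p = 0.122, edgeR). Without *Rnmt* cKO library 3 it passed, at -0.45 with an adjusted p of 0.0335. Scaled by TMM, the ratios of the genotypes did not overlap for 3 of the 10 genes (*Stat5a*, *Stat5b*, *Stat6*), beside 31.5% of all genes tested. The intervals of *Cish* (-1.49 to 0.54) and *Socs1* (-0.68 to 0.91) were wide, so these libraries could not resolve small changes in their TE.

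**Figure D2:**
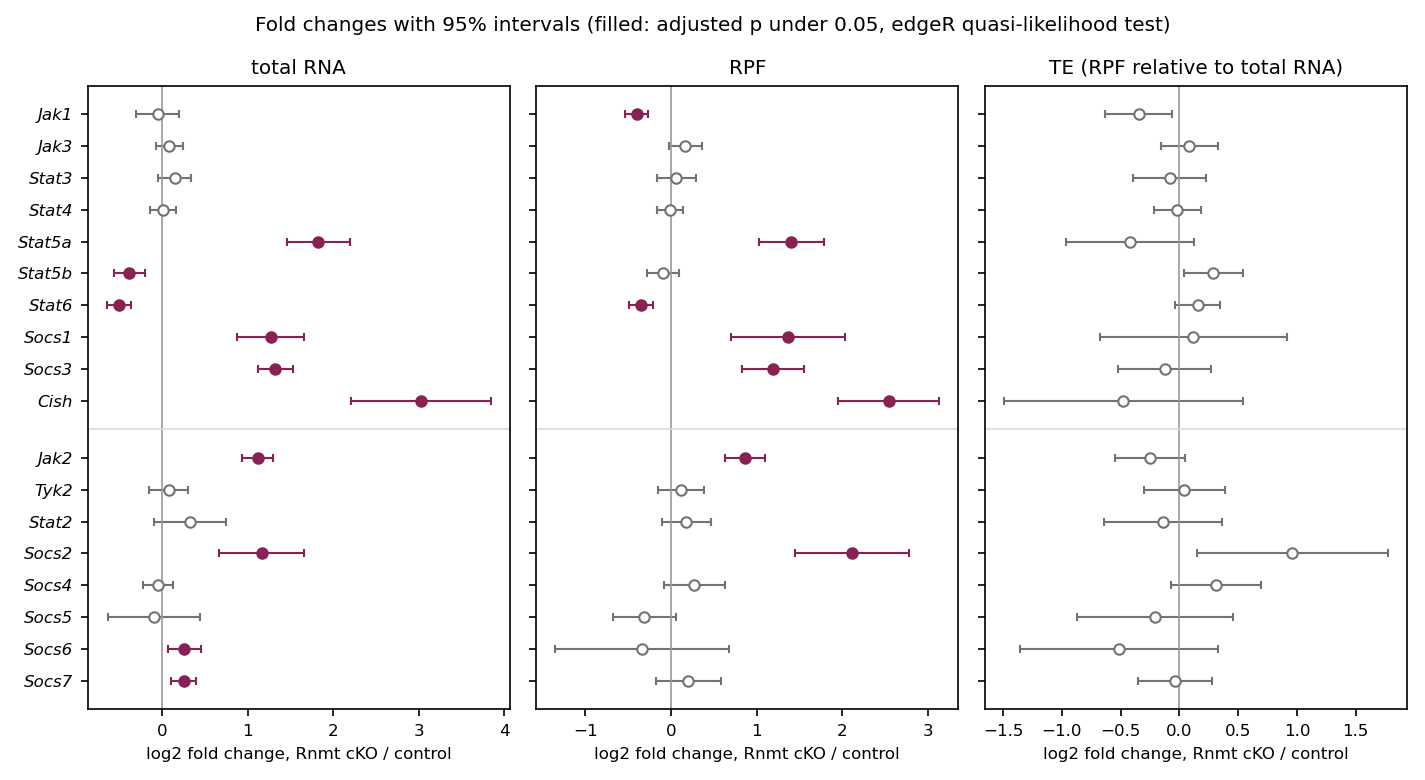
Log2 ratios of *Rnmt* cKO to control levels with 95% intervals for total RNA, RPF and TE; filled points have an adjusted p under 0.05 in edgeR's quasi-likelihood test, and the line separates the 10 genes from the other genes of the families. *Cish* has the largest value in total RNA (3.02) and in RPF (2.54), and no point is filled in TE.

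Other genes of the 3 families examined were *Jak2*, *Tyk2*, *Stat2*, *Socs2*, *Socs4*, *Socs5*, *Socs6* and *Socs7*, and 4 of these 8 rose in total RNA, 2 rose in RPF and none fell, beside rises of 26.3% of all genes in total RNA and 14.1% in RPF. *Jak2*, the kinase of the receptors for interferon gamma, IL-12 and GM-CSF, was at 231, 219 and 254 CPM in control total RNA and at 476, 505 and 544 CPM in *Rnmt* cKO total RNA. Its log2 fold changes were 1.12 (SE 0.08, adjusted p = 3.02e-05, edgeR) in total RNA and 0.87 (SE 0.10, adjusted p = 0.000699, edgeR) in RPF, and it was the 1 JAK gene of 4 called as a rise. *Socs2*, an inhibitor best known from growth hormone signalling and a STAT5 target, was low but higher in every *Rnmt* cKO library than in any control library, going from 4.62, 6.62 and 7.87 CPM to 16.2, 15.7 and 11.2 CPM in total RNA and from 1.60, 2.86 and 3.68 CPM to 11.1, 11.03 and 12.8 CPM in RPF. Its log2 fold changes were 1.16 (SE 0.21, adjusted p = 0.00249, edgeR) and 2.11 (SE 0.29, adjusted p = 0.00144, edgeR). *Socs6* and *Socs7* rose slightly in total RNA, by 0.26 and 0.25 on the log2 scale, and did not pass in RPF, where *Socs6* held 10 to 44 reads per library and its 95% interval ran from -1.35 to 0.67. The call of *Socs7* was lost without control library 1, and that of *Socs6* in 4 of the 6 fits that left out 1 library (highest adjusted p = 0.111, edgeR). *Jak2* had log2 fold changes of 1.24 in total RNA and 1.08 in RPF with *Rnmt* cKO library 3 alone, and *Socs2* had 0.84 and 2.25. The log2 fold changes in total RNA of the 4 that did not pass were 0.07 for *Tyk2*, 0.32 for *Stat2*, -0.05 for *Socs4* and -0.10 for *Socs5*. Without *Rnmt* cKO library 3, *Stat2* passed as a rise (0.53).

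The signals that feed the pathway and the targets of the STAT proteins were examined next. The lists share *Ifng*, *Il21*, *Osm*, *Il2ra*, *Il4ra* and *Il12rb2*, so that their counts are not independent. They were chosen with earlier results of these data known, so their shares beside those of all genes are a description. Of 11 cytokine genes listed, 5 passed the filter in total RNA and 4 in RPF. *Csf2*, the gene of GM-CSF, with 2 to 3 reads in each control total RNA library against 28, 81 and 39 reads, passed through its level in *Rnmt* cKO cells alone and therefore had to differ, so it is left out of what follows. The other 4 (*Il2*, *Ifng*, *Lif*, *Osm*) rose in both kinds, beside 26.3% and 14.1% of all genes. *Ifng*, the gene of interferon gamma, was at 1.91, 1.43 and 3.07 CPM in control total RNA and at 18.9, 23.8 and 18.01 CPM in *Rnmt* cKO total RNA, a log2 fold change of 3.24 (SE 0.24, adjusted p = 3.62e-05, edgeR) and of 3.84 in RPF. *Il2*, the gene of the main growth factor of activated T cells, was at 10.2, 5.98 and 7.98 CPM against 19.8, 26.0 and 21.7 CPM, a log2 fold change of 1.48 in total RNA (SE 0.19, adjusted p = 0.000409, edgeR) and of 1.83 in RPF (adjusted p = 0.000224, edgeR). *Lif*, which signals through gp130 and STAT3, rose by 2.22 in total RNA and 2.26 in RPF, and *Osm*, a relative of *Lif*, by 0.78 and 0.76. *Il3*, *Il4*, *Il6*, *Il10*, *Il13* and *Il21* did not pass the filter in either kind. With *Rnmt* cKO library 3 alone, all 4 rose in total RNA and 3 in RPF, where *Osm* did not pass, in fits that called 19.7% and 4.36% of all genes as rises and 20.8% and 4.75% as falls.

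Among 18 receptor chains, 6 rose and 5 fell in total RNA, and 6 rose and 3 fell in RPF, with a median log2 fold change of 0.08 in total RNA. These shares lie near those of all genes in total RNA (26.3% rises and 28% falls), and in RPF all genes gave 14.1% and 15.7%. The largest rises were those of *Il12rb2*, the signalling chain of the IL-12 receptor (1.70, adjusted p = 0.00976, edgeR), *Il21r*, the IL-21 receptor (1.55, adjusted p = 1.68e-05, edgeR), and *Il10ra*, the IL-10 receptor (1.13, adjusted p = 0.000107, edgeR). The value of *Il12rb2* ranged from 1.41 to 2.38 when 1 library was left out, the highest without control library 3, and its RPF call was lost in 3 of those 6 fits (*Rnmt* cKO library 1 or 2 or control library 2). *Il21r* went from 48.4, 47.3 and 47.7 CPM in control total RNA to 131, 161 and 128 CPM. The falls were led by *Ifngr1*, a chain of the interferon gamma receptor (-0.75, adjusted p = 0.000300, edgeR), *Il6ra*, the IL-6 receptor (-0.75, adjusted p = 0.0119, edgeR), and *Il6st*, which encodes gp130 (-0.30, adjusted p = 0.00190, edgeR). In RPF the largest falls were those of *Il6ra* (-1.14), *Ifngr1* (-0.55) and *Ifnar1* (-0.39), the last lost without *Rnmt* cKO library 1. Among the chains of the IL-2 receptor, *Il2ra* rose in both kinds, by 0.81 in total RNA (adjusted p = 0.000723, edgeR), *Il2rb* rose in total RNA (0.39, adjusted p = 0.00254, edgeR), and *Il2rg*, the common gamma chain, did not pass (0.06, adjusted p = 0.643, edgeR). Tested with *Rnmt* cKO library 3 alone, 5 chains rose and 5 fell in total RNA, beside 19.7% and 20.8% of all genes in that fit, and 2 rose and 1 fell in RPF, beside 4.36% and 4.75%. No chain passed in TE, but with the block by genotype and number that of *Il21r* rose by 0.41 (adjusted p = 0.0136, edgeR).

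Of 11 textbook targets of STAT5 besides the SOCS genes, 9 rose in total RNA and 10 in RPF and none fell, with median log2 fold changes of 0.81 and 0.71 beside -0.0037 and 0.0080 over all genes tested, of which 26.3% and 14.1% rose. *Pim1*, a kinase induced by cytokines, rose most in total RNA, from 60.2, 68.1 and 68.6 CPM in control libraries to 373, 459 and 356 CPM in *Rnmt* cKO libraries, a log2 fold change of 2.59 (SE 0.11, adjusted p = 6.05e-06, edgeR). In RPF its log2 fold change was 1.86. *Pim1* was the 1 gene of this list whose TE fell (-0.73, SE 0.19, adjusted p = 0.0278, edgeR), beside TE falls of 6.57% of all genes. *Bcl2l1*, the gene of the survival protein BCL-XL, rose by 2.14 in total RNA (adjusted p = 6.05e-06, edgeR) and by 1.98 in RPF. *Lta*, the gene of lymphotoxin alpha, rose by 1.93 and 1.62. *Ccnd3*, a cyclin of the G1 phase, rose in RPF (0.45, adjusted p = 0.00236, edgeR) and in TE (0.36, adjusted p = 0.0315, edgeR), beside TE rises of 3.24% of all genes. When 1 library number of a genotype was left out, the TE call of *Ccnd3* was lost in 5 of 6 fits (all but control library 2) and that of *Pim1* in 3 (*Rnmt* cKO library 1 and control libraries 2 and 3). *Id2* passed in neither kind (0.03 in total RNA and 0.03 in RPF). Against the controls, *Rnmt* cKO library 3 alone gave 7 rises of 11 in each kind, beside 19.7% and 4.36% of all genes.

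Of 11 genes listed for STAT3, STAT4 and STAT6, 10 passed the filter, and 6 of them rose and 1 fell in total RNA, beside 26.3% and 28% of all genes, while 6 rose and none fell in RPF, beside 14.1% and 15.7%. *Ifng*, *Gata3* (2.08, adjusted p = 0.000984, edgeR) and *Tbx21* (1.82, adjusted p = 0.0255, edgeR), the last pair being master factors of TH2 and TH1 cells, rose most in total RNA. In RPF the largest rises were those of *Ifng* (3.84), *Tbx21* (1.83) and *Il12rb2* (1.57). *Maf* fell by 0.82 on the log2 scale in total RNA and did not pass in RPF. Leaving out 1 library ended the total RNA call of *Tbx21* in 2 of 6 fits (*Rnmt* cKO library 1 or control library 2) and that of *Maf* in 4. Without control library 3, which held 24.1 CPM of *Tbx21* against 3.45 and 7.46 CPM in the others, its value was 2.91. In RPF, the call of *Tbx21* was lost in 3 of the 6 fits without 1 library. That of *Gata3* was lost in 1 (highest adjusted p = 0.0944 and 0.0501, edgeR). The RPF log2 fold change of *Gata3* was 1.16, and 0.67 with *Rnmt* cKO library 3 alone. With *Rnmt* cKO library 3 alone, 4 rose and 1 fell in total RNA, beside 19.7% and 20.8% of all genes in that fit, and 2 rose in RPF, beside 4.36%. The TE of *Gata3* had a log2 fold change of -0.92 (adjusted p = 0.253, edgeR), and of -0.94 with the block by genotype and number (adjusted p = 0.00843, edgeR).

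Of 11 negative regulators listed outside the SOCS family, 2 rose and 4 fell in total RNA, and 1 rose and 2 fell in RPF, so that 6 and 3 were called, near the 54.2% and 29.8% of all genes. *Ptpn2*, a phosphatase of JAK1 and JAK3, rose in total RNA from 116, 114 and 117 CPM to 153, 160 and 169 CPM (log2 fold change 0.47, adjusted p = 0.000277, edgeR). In RPF it went from 109, 107 and 116 CPM to 115, 125 and 104 CPM (0.05, adjusted p = 0.646, edgeR), and its TE fell by 0.42 (adjusted p = 0.0167, edgeR). *Ptpn1*, a related phosphatase, rose slightly in both (0.22 and 0.21). *Ptpn6*, the gene of SHP-1, fell in both (-0.43 and -0.57), as did *Ptprc*, the gene of CD45 (-0.37 and -0.30), and *Pias3*, an inhibitor of STAT3, fell in total RNA (-0.58). Of these calls, those of *Ptpn1* in RPF and *Pias3* in total RNA were lost in 5 and 4 of the 6 fits without 1 library, that of *Ptprc* in RPF in 2 (*Rnmt* cKO library 1 or control library 3), and the TE call of *Ptpn2* without any 1 of the control libraries. With *Rnmt* cKO library 3 alone, 1 rose and 3 fell in total RNA, beside 19.7% and 20.8% of all genes in that fit, and none rose and 1 fell in RPF, beside 4.36% and 4.75%. SOCS proteins use their SOCS box to recruit *Elob*, *Eloc*, *Cul5* and *Rnf7*, the parts of a ubiquitin ligase. Of these 4, *Rnf7* (0.39, adjusted p = 0.00165, edgeR) and *Cul5* (0.17, adjusted p = 0.0274, edgeR; lost without any 1 of the control libraries) rose in total RNA, beside 26.3% of all genes, none passed in RPF, and *Elob* and *Eloc* had log2 fold changes of -0.17 and 0.09 in total RNA.

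The genes most like the inhibitors across the 12 libraries were found by the Pearson correlation of log2 CPM, centred within total RNA and within RPF, over 6608 well measured genes. As this measure holds the difference between genotypes as well as the spread within them, it is a description. *Cish* was most like *Stat5a* (r = 0.992), *Xbp1*, a factor of the secretory pathway (0.989), and *Il2ra* (0.989). *Socs3* was most like *Taf4b* (0.994), *Adcy6* (0.991) and *Sco1* (0.988), and *Socs1* most like *Sprtn* (0.971), *Irf8* (0.963) and *H2-Q6* (0.961). In *Rnmt* cKO total RNA, *Cish*, *Stat5a* and *Socs1* were highest in library 2 and lowest in library 3. The B cell marker sum had the same order (67.5, 88.7 and 15.1 CPM). In RPF, *Cish* kept this order with the marker sum, but *Stat5a* (367, 585 and 379 CPM) and *Socs1* (73.3, 71.5 and 46.3 CPM) did not. What B cell RNA adds to these correlations was not tested.

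The markers of other cells were examined beside these results, and their part in them was not tested. The values with *Rnmt* cKO library 3 alone bear on the B cell markers only, as the NK and regulatory T cell lists were about as high in that library as in *Rnmt* cKO library 1. Of the 5 B cell markers, *Ms4a1* and *Cd79b* passed the test as rises in both kinds, beside rises of 26.3% and 14.1% of all genes. *Ebf1*, with 5, 0 and 10 reads in control RPF against 31, 51 and 6 reads, met the filter there through the *Rnmt* cKO libraries and is not counted. The most abundant in all total RNA libraries but control library 2 was *Ms4a1*, with 32 to 247 reads in control total RNA and 176 to 797 reads in *Rnmt* cKO total RNA. Neither CD8 marker passed, and together they stood at 9.85 to 26.4 CPM in *Rnmt* cKO and at 21.4 to 41.7 CPM in control total RNA. Of the 6 myeloid markers 1 was tested and did not pass, and the list summed to 1.02 to 2.51 CPM in total RNA over both genotypes, with *Cd68* the most abundant gene in every library (17 to 27 reads). The NK cell list summed to 5.52, 6.04 and 7.33 CPM in control and to 22.9, 39.0 and 24.6 CPM in *Rnmt* cKO total RNA, mostly from *Eomes* in *Rnmt* cKO libraries, which activated T cells can also express. *Klrd1*, the other gene tested, did not pass. *Ncr1*, with 2, 2 and 0 reads against 7, 12 and 9, and *Klrb1c*, with 0, 0 and 1 against 5, 9 and 6, were below the filter and higher in every *Rnmt* cKO total RNA library. In the regulatory T cell list, *Ikzf2* and *Nrp1* rose in both kinds of library, beside rises of 26.3% and 14.1% of all genes. That list summed to 15.7 to 18.1 CPM in control total RNA and to 30.9 to 32.2 CPM in *Rnmt* cKO total RNA, while *Foxp3*, its defining gene, was at 0.701 to 0.902 CPM and 0.361 to 0.882 CPM. Of the 6 T cell markers, *Cd3d*, *Cd3g* and *Cd5* fell in both kinds of library and none rose, beside falls of 28% of all genes in total RNA and 15.7% in RPF.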

How the data were processed

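The 10 genes and all lists were chosen with earlier results of these data known. Per the submitters' notes and methods, the authors used read 2 alone (read 1 failed), trimmed adapters (cutadapt), discarded rRNA and tRNA reads (Bowtie), aligned to mm10 (GRCm38) and deposited counts of uniquely aligned reads per gene from STAR 2.5.2b, without normalization, for both strands and for each strand. They also deposited normalized signal values of 10126 genes, used here only to identify the strand (the reverse strand count gave all values of each library up to 1 factor). Their columns of fold changes and p-values were not used. Rows that name no gene made up 41.1 to 47.0% of all reads of total RNA libraries and 53.9 to 70.4% of those of RPF libraries and were left out.

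Reverse strand counts were tested in edgeR 4.0.16 (R 4.3.3) with TMM and the quasi-likelihood F test for genes above a CPM of 1 in 3 or more of the 6 libraries of a kind. TE was the genotype by kind term of 1 model of 12 libraries, for genes that passed in both. P-values were adjusted by Benjamini-Hochberg over all genes tested, with a threshold of 0.05. The fits were tested on simulated data. RiboDiff was not used. CPM in the text are scaled by TMM, and levels per length use the union of exons in GENCODE vM21, in which 49326 of 49585 IDs were found. The depth above sets the precision through the SE of each fold change, which covers counting and the spread between libraries, and duplicate reads were not separated. RefSeq sequences came from the GRCm38.p6 table. Python 3.11.15 with pandas 2.3.3, numpy 2.4.6, scipy 1.17.1 and matplotlib 3.10.9 made tables and figures.

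All 10 genes, the other genes listed of the families and the 4 SOCS box partners were named, and from each other list the 3 largest rises and falls past the threshold in total RNA, RPF and TE. *Il2ra*, *Il2rb*, *Il2rg*, *Il2*, *Osm*, *Foxp3*, *Id2* and the genes given beside marker lists were chosen after their values were seen. Alternatives were library size alone, DESeq2 1.42.0, the exact test, other filters, both strands, coding genes alone, each replicate left out, and a replicate block across genotypes or across kinds. Total RNA and RPF libraries with the same number deviated together (correlations of 0.160 to 0.378 in control and 0.113 to 0.365 in *Rnmt* cKO libraries, over 0.1 in every pair), so a block by genotype and number was used for TE, a pairing taken from the data. The fit without *Rnmt* cKO libraries 1 and 2 was added after seeing the data. Some genes of the families, lists and markers are not reported here, and counts, sums and medians were computed without them.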

Additional observations from a re-analysis of the deposited data

Results flagged for a closer look

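Forward strand reads were not used in the comparisons. At *Stat3*, *Cish* and *Stat5a* they were more numerous in every *Rnmt* cKO total RNA library than in any control library. These are read counts not scaled by depth, and the share of all genes that differ in this way is not given here. At *Stat3* there were 37, 38 and 36 such reads in control libraries and 115, 211 and 133 in *Rnmt* cKO libraries, or 1.02% and 3.64% of the reads of both strands. *Stat3* overlaps *Stat5a*, which rose, at its end on the opposite strand. At *Cish* there were 6, 2 and 3 such reads in control libraries and 41, 85 and 63 in *Rnmt* cKO libraries, or 1.00% and 2.10% of the reads of both strands, and the annotation holds *Gm17040* on that strand. At *Stat5a* there were 4, 2 and 4 reads against 5, 6 and 5, or 0.174% and 0.0778%, so that there the share of forward strand reads was lower in *Rnmt* cKO libraries. What gave these reads was not tested.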

How the results depend on the processing

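Of 90 counts of the 10 genes called under the alternatives, 86 were within 1.5 times the value reported, and of the 450 log2 fold changes of the 10 genes under all alternatives 444 stayed on their side of the threshold, 4 came to pass it and 2 no longer did. No value that passed, in the fit reported or in the alternative, changed sign, whereas values near 0 that passed in neither did, such as *Jak1* in total RNA (0.06 without *Rnmt* cKO library 3). Leaving out *Rnmt* cKO libraries 1 and 2, chosen after seeing the data, left 1 gene called as a fall in RPF in place of 2 and 3 called as rises in place of 4, and *Socs1* and *Stat6* no longer passed there. With the replicate block by genotype and number, 1 gene fell in TE in place of 0 (*Stat5a*), while over all genes 426 rose and 777 fell (7.28% of those tested). Over the fits without 1 replicate, the number of genes that fell in TE ranged from 0 to 1. The replicate numbers do not pair control with *Rnmt* cKO libraries, whose same-number correlations ran from -0.476 to -0.171 in total RNA and from -0.120 to 0.284 in RPF, and the block across genotypes left the counts of the 10 genes at 4 rises and 2 falls in both. The block across genotypes gave, over all genes, 190 rises and 456 falls in TE in place of 346 and 701. With *Rnmt* cKO library 3 alone, 477 rose and 520 fell in RPF in place of 1612 and 1796, and 81 and 294 in TE, fits with fewer libraries. Coding length in place of exon length changed the order of the levels as described. The limits of depth lie with *Socs2*, *Socs6* in RPF, *Csf2*, *Foxp3* and the ligands under the filter, which held few reads.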
